A study of Homo sapiens with 4 samples.

Results

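The 39 genes described here encode proteins of the centromere and the kinetochore, and they were measured by RNA sequencing in OVCAR3 ovarian carcinoma cells with and without etoposide. They were taken by gene name from the 60605 gene IDs in the deposited transcript tables, and all 39 were among the 22185 genes whose mean reached 0.1 FPKM (fragments mapped to a transcript, scaled to its length and to the depth of the library), which were tested. By place, 17 belong to the inner kinetochore (15 subunits of the constitutive centromere-associated network and the MIS18 proteins MIS18A and OIP5), 18 to the outer kinetochore (the NDC80, MIS12, KNL1 and SKA complexes and the fibrous corona), and 4 are centromeric proteins of the shugoshin family and the chromosomal passenger complex (SGO1, SGO2, INCENP and CDCA8).

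The kinetochore is the protein plate that joins each chromosome to spindle microtubules in mitosis. Its inner layer sits on nucleosomes that carry CENP-A, the histone H3 variant that marks the centromere, and stays there through the cell cycle, while the outer layer is assembled as cells enter mitosis and holds the microtubules and the spindle assembly checkpoint. Shugoshins protect cohesin at the centromere, and the passenger complex carries Aurora B kinase, which releases faulty attachments. Many of these genes are known to be transcribed periodically, some with DNA replication under E2F factors and others in G2 and mitosis under the MuvB complexes.

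OVCAR3 is an established line of ovarian carcinoma cells (high-grade serous), and etoposide is a topoisomerase II poison that causes DNA double-strand breaks. There were 2 libraries of cells given 1.7 µM etoposide for 24 h and 2 libraries of cells given DMSO, its vehicle, for the same time. By the protocol that the labels give for all 4 libraries, the cells had first been held for 16 h in 100 ng/mL nocodazole, a microtubule poison that arrests cells in mitosis, and then released for 3 h, so that DMSO cells are a vehicle control after a mitotic block and not an untreated culture. The labels call the 2 libraries of each group biological replicates of a single cell line. The p-values here set the difference between groups against the spread between libraries of a group, pooled in part over all genes. They cover no spread beyond those 4 libraries. An exact permutation test (two-sided) of 2 against 2 libraries can give no p below 0.333, so limma was fitted across all genes.

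The deposited coverage implies 47687126 and 58513480 read pairs in the etoposide libraries and 64473397 and 66500749 in the DMSO libraries. All 10 ovarian carcinoma markers were present, the lowest (MSLN) averaging 8.27 FPKM. Their summed levels were 2131 to 2203 FPKM in etoposide cells and 2737 to 3088 FPKM in DMSO cells. In etoposide cells 7 of the 10 were lower at an unadjusted p under 0.05, where 4.85% of all genes tested were. Leukocyte markers summed to between 1.30 and 1.42 FPKM in etoposide cells and between 1.47 and 1.82 FPKM in DMSO cells, with ITGAM listed at 0 in 3 libraries, and of the 6 endothelial markers the highest (KDR) averaged 4.28 FPKM. The 8 fibroblast markers summed to between 8.46 and 8.73 FPKM in etoposide cells and between 7.33 and 7.49 FPKM in DMSO cells, and COL1A1, the highest, had 6.11 and 5.80 FPKM in etoposide cells, against 4.36 and 4.42 FPKM in DMSO cells, while DCN, COL3A1 and THY1 stayed under 0.1 FPKM in every library.

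Promoter windows of 250 bases before and 50 after the start were taken from RefSeq (GRCh38.p14) for 33 of the 39 genes, the others being CENPH, CENPL, CENPM, KNL1, KNTC1 and MIS18A. The windows of 6 genes are shown, which were picked by their levels. NDC80 and CDCA8 were lower in both etoposide libraries, and ZWINT, DSN1, CENPK and CENPQ were higher in both. Whether the sequences bear on these levels was not tested. The NDC80 window lies at chr18:2571307-2571606 on the plus strand, CDCA8 at chr1:37692266-37692565 (plus), ZWINT at chr10:56361210-56361509 (minus), DSN1 at chr20:36773714-36774013 (minus), CENPK at chr5:65563119-65563418 (minus) and CENPQ at chr6:49463120-49463419 (plus). Each sequence runs 5′ to 3′ along its gene, and capitals mark every match, on either strand, to 4 motifs: the cell cycle genes homology region (CHR, TTTGAA), its variant TTCGAA, the CCAAT box, and 3 E2F words, of which the first is TTGGCGC, the next is TTCGCGC and the last is TTCCCGC.
NDC80: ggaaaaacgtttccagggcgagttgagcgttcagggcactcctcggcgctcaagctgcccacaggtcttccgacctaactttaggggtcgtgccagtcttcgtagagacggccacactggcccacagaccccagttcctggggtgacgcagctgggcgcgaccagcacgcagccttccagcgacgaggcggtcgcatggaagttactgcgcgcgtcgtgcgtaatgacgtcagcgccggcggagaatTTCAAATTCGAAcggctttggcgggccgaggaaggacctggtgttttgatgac
CDCA8: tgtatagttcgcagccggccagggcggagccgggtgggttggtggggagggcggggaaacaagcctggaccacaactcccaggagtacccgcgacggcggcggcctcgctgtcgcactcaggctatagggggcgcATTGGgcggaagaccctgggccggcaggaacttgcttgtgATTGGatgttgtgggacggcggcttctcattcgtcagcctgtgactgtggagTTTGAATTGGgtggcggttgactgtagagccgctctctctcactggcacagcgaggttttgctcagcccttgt
ZWINT: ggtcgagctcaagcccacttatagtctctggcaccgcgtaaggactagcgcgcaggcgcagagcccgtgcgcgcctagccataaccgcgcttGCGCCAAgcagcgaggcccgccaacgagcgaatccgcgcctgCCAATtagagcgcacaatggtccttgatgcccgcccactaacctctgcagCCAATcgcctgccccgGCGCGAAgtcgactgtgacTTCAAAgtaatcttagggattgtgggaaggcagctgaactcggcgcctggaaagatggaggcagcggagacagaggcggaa
DSN1: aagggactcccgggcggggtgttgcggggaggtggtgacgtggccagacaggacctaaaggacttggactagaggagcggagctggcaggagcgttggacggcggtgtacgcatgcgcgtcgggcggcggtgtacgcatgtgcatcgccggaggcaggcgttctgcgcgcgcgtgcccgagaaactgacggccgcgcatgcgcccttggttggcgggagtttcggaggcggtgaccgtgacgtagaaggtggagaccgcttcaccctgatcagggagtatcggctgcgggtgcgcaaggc
CENPK: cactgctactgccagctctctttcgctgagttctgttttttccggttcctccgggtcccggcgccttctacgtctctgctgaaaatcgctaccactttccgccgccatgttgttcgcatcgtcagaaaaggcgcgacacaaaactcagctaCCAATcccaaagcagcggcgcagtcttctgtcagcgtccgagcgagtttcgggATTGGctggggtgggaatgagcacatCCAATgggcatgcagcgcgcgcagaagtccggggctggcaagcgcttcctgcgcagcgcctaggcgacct
CENPQ: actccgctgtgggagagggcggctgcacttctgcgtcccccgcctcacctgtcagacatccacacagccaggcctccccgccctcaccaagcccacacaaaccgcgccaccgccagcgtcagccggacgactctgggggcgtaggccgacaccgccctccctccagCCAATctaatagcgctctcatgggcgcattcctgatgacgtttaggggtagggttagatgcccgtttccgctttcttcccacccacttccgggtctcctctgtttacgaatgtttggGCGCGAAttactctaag

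Counting the first transcribed base as 1, the NDC80 window held the CHR letters on the other strand at -3 and the TTCGAA variant next to it at 4, and no CCAAT box or E2F word. CDCA8 held a CHR at -23 that shares 1 base with the CCAAT box at -18, and ZWINT held a CHR at -31, 2 CCAAT boxes and 2 E2F words. CENPK had 3 CCAAT boxes, CENPQ had 1 CCAAT box and 1 E2F word, and the DSN1 window matched none of the motifs. The CHR was found in 9 of 16 outer members with a window, 3 of 13 inner members and 2 of 4 centromeric members, against 15.2% of all 35093 promoter windows. The CCAAT box was in 9 of 16 outer, 9 of 13 inner and 4 of 4 centromeric members (34.6% of all windows), and an E2F word in 7 of 16, 4 of 13 and 0 of 4 (11.0% of all windows). The TTCGAA variant was in NDC80 among the outer members, in OIP5 and CENPW among the inner members and in SGO1 (1.45% of all windows). The TTGGCGC word can share bases with a CCAAT box, and 5 members had more than 1 window, each of which was searched, so these counts describe letters and not bound sites.

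The 39 genes spanned 1.46 to 41.9 FPKM in their mean over the 4 libraries, with a median of 13.3 FPKM. In the inner kinetochore the highest was CENPX, a small histone fold protein that also acts in the Fanconi anaemia pathway, and the lowest CENPP of the CENP-O module. In the outer kinetochore the highest was PMF1, a MIS12 complex subunit, and the lowest SKA1, which tracks microtubule ends. INCENP, the passenger scaffold, and SGO1 bounded the 4 centromeric genes at 20.9 and 8.19 FPKM. Subunits of one complex were not listed at one level: within the NDC80 complex NDC80 averaged 24.7 FPKM, SPC24 20.6, NUF2 16.4 and SPC25 4.54 FPKM, on a scale that allows for transcript length.

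**Figure D1:**
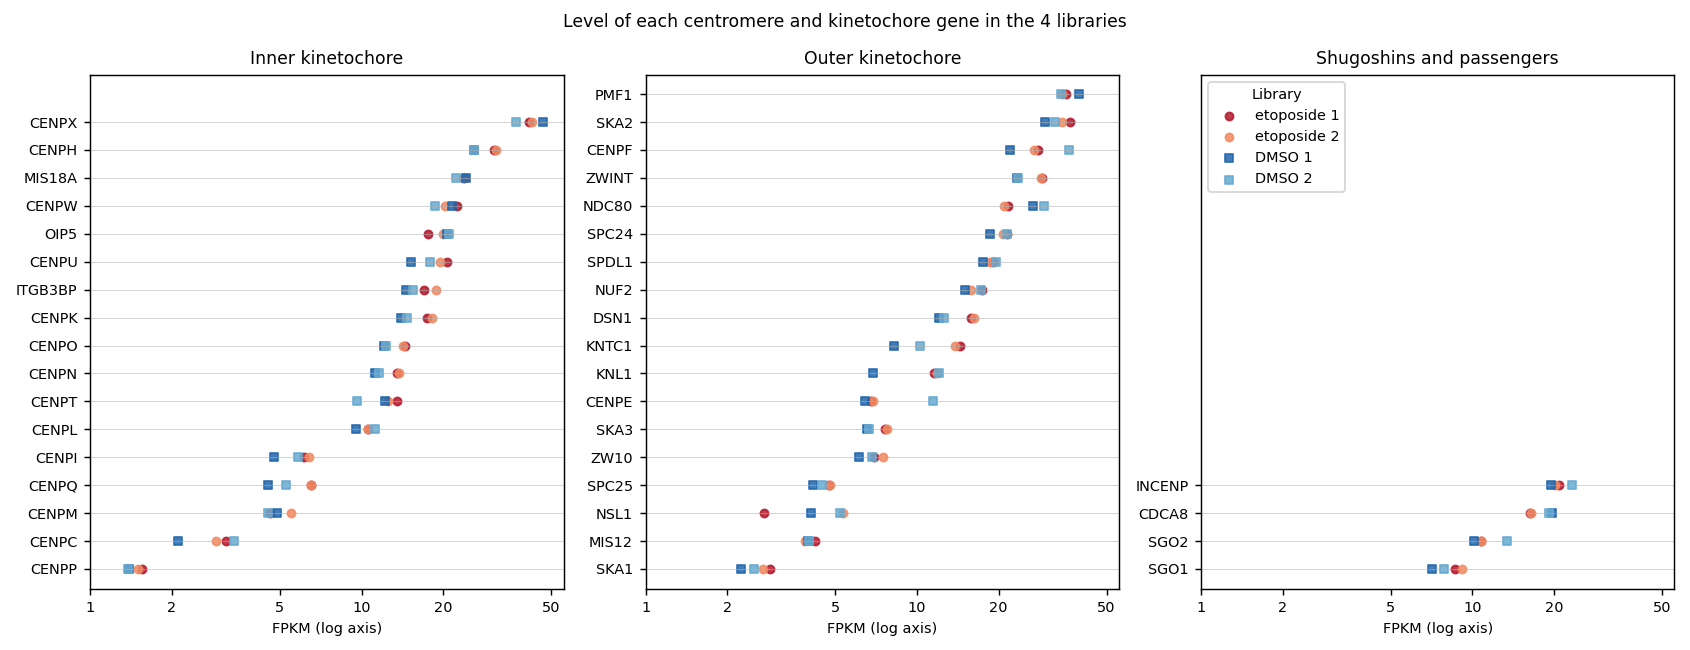
Level of each of the 39 genes in the 4 libraries, in FPKM on a log axis, with 1 row a gene and etoposide libraries as circles and DMSO libraries as squares. Most genes lie between 2 and 50 FPKM, and wide gaps within a row include those of the long transcripts CENPF, CENPE, KNL1, KNTC1 and CENPC, where DMSO replicate 2 stands above DMSO replicate 1, and of NSL1, where etoposide replicate 1 is low.

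Levels in DMSO replicate 2 departed from those in DMSO replicate 1 according to the length of the transcript. Of the 8 members whose highest transcript is over 5000 bases (CENPC, CENPE, CENPF, CENPI, CENPP, KNL1, KNTC1 and NSL1), 7 were higher in DMSO replicate 2 than in DMSO replicate 1, with a median difference of 0.49 on the log2 scale, against 24 of the other 31 members, with a median of 0.075. Between the etoposide libraries the same medians were -0.011 and -0.0033. Across the 39 genes, which share their libraries, Spearman's rho of length with the replicate difference was 0.66 for DMSO and -0.068 for etoposide, and over all 22185 genes it was 0.31 and 0.015. Fold changes were therefore also computed after a correction of each library for transcript length and GC content, and without each DMSO library, and these values are given for the 8 long members. The part that this difference plays in any single gene was not tested.

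**Figure D2:**
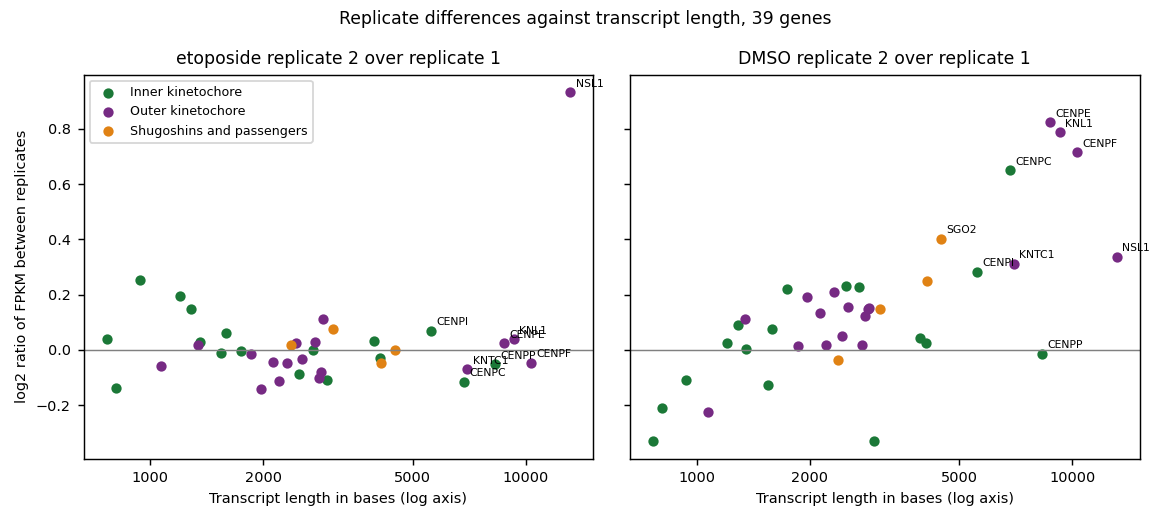
Difference between replicates, as the log2 ratio of replicate 2 to replicate 1, against transcript length in bases on a log axis, for etoposide (left) and DMSO (right), 1 point a gene. In DMSO the long members CENPE, KNL1, CENPF and CENPC lie 0.65 to 0.82 above 0, while in etoposide only NSL1, at 0.93, stands apart.

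None of the 39 genes passed an adjusted p of 0.05 in limma, and neither did any of the 22185 genes tested (0%), where the smallest adjusted p was 0.169. With voom on estimated fragments 0 members and 1 gene passed. At an unadjusted p under 0.05, 10 members were higher in etoposide cells and 2 lower, where 7.06% of all genes were higher and 4.85% lower. By library values, both etoposide libraries lay above both DMSO libraries for 19 members and below them for 3 (NDC80, CDCA8 and OIP5), against 28.9% and 19% of all genes tested, and for 17 members the groups overlapped. The fitted log2 fold change, etoposide over DMSO, was above 0 for 30 members and below 0 for 9, where it was above 0 for 56.2% of all genes. Its median was 0.15 over the members and 0.036 over all genes, and after the length and GC correction 0.062 and -0.0042. With that correction 0 members passed an adjusted p of 0.05 in limma (0.027% of all genes did), and at an unadjusted p under 0.05, 10 were higher and 4 lower, against 6.62% and 8.16% of all genes. In RNA from a whole culture, fewer cells in a phase and less RNA per cell cannot be told apart.

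**Figure D3:**
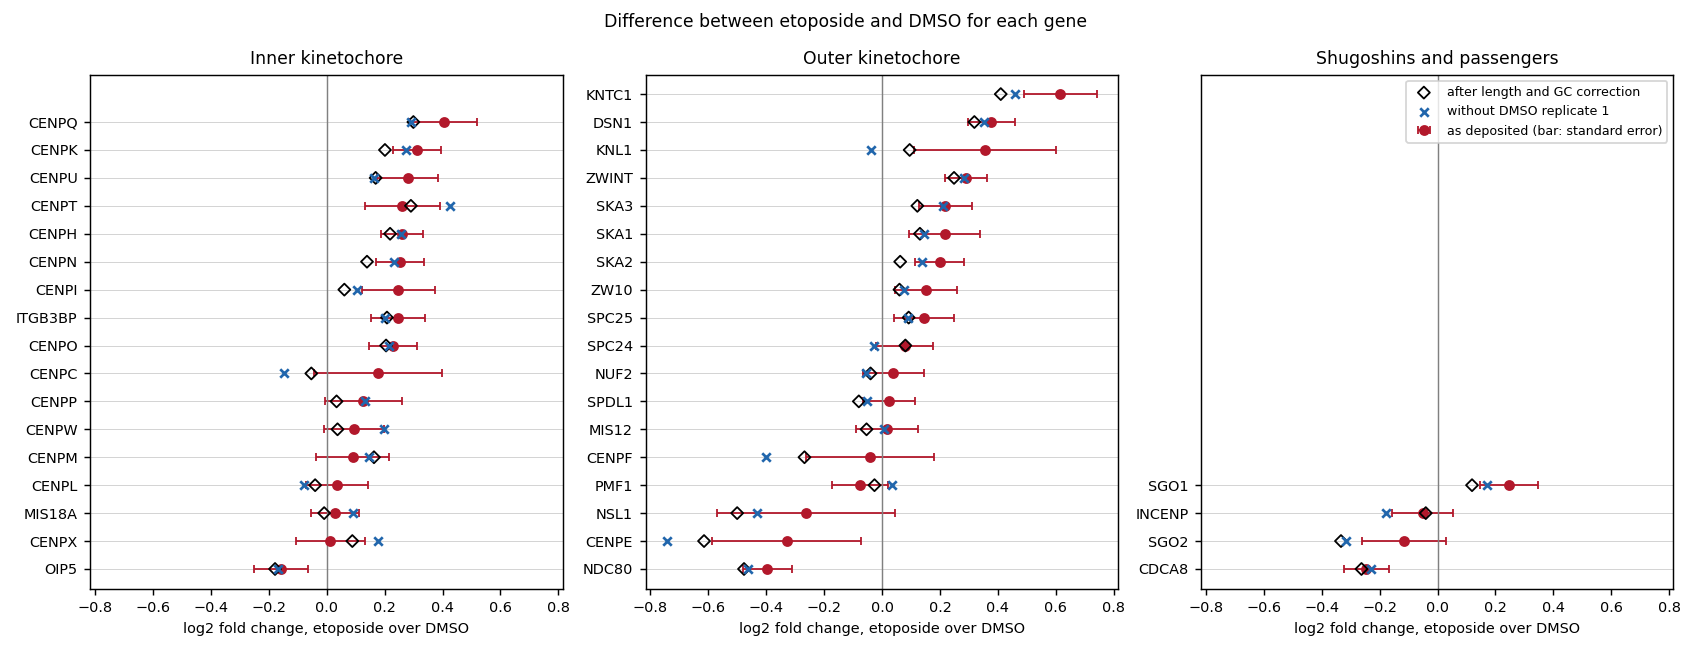
Log2 fold change of each gene, etoposide over DMSO (red circle, bar for the standard error), with the value after the length and GC correction (open diamond) and the value without DMSO replicate 1 (blue cross). The red circles of inner kinetochore genes lie right of 0 except OIP5 at -0.16, those of outer genes run from -0.40 (NDC80) to 0.62 (KNTC1), and CENPE, CENPF, CENPC and KNL1 shift left in both alternatives.

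In the inner kinetochore, all 15 subunits of the constitutive centromere-associated network had fitted values above 0, with a median of 0.25 (0.16 after the correction). For 10 of them both etoposide libraries lay above both DMSO libraries, where this held for 28.9% of all genes tested. CENPC and CENPL were below 0 after the correction, and CENPX, at 0.01, was below 0 with median scaling. The 5 subunits of the CENP-O module, which docks the mitotic kinase PLK1 at the centromere, were higher in both etoposide libraries than in both DMSO libraries. CENPQ had 6.50 and 6.48 FPKM in etoposide cells, against 4.51 and 5.28 FPKM in DMSO cells. The largest fold change of the inner kinetochore was that of CENPQ (log2 0.40, SE 0.11, limma adjusted p = 0.342). CENPU, the PLK1 docking subunit, had 20.7 and 19.5 FPKM in etoposide cells, against 15.2 and 17.9 FPKM in DMSO cells (log2 0.28, SE 0.11, limma adjusted p = 0.401), and without DMSO replicate 1 the value was 0.16. ITGB3BP, which encodes CENP-R, and CENPO had log2 fold changes of 0.25 and 0.23 with ranges that did not overlap. CENPP, the lowest inner member, had 1.55 and 1.49 FPKM in etoposide cells, against 1.39 and 1.38 FPKM in DMSO cells. Its groups did not overlap either, but the fold change was no larger than its error (log2 0.13, SE 0.13, limma adjusted p = 0.703). Corrected for length and GC content it was 0.034, and leaving out DMSO replicate 1 or 2 gave 0.13 or 0.12.

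The CENP-H/I/K/M module, which bridges the centromeric nucleosome and the rest of the network, had a median log2 fold change of 0.25. CENPK had 17.4 and 18.2 FPKM in etoposide cells, against 14.0 and 14.7 FPKM in DMSO cells (log2 0.31, SE 0.083, limma adjusted p = 0.336). CENPH had 30.7 and 31.4 FPKM in etoposide cells, against 25.9 and 26.0 FPKM in DMSO cells (log2 0.26, SE 0.073, limma adjusted p = 0.342). In both genes the replicates of a group lay closer to each other than the groups did. CENPI was 0.25 higher on the log2 scale as deposited, 0.061 after the correction, and 0.11 or 0.39 with DMSO replicate 1 or 2 left out. CENPM was split, with 4.58 and 5.47 FPKM in etoposide cells and 4.89 and 4.52 FPKM in DMSO cells, so that the groups overlapped (log2 0.09, SE 0.13, limma adjusted p = 0.782).

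Of the subunits that touch chromatin, CENPN, which reads the CENP-A nucleosome, had 13.5 and 13.8 FPKM in etoposide cells, against 11.2 and 11.6 FPKM in DMSO cells (log2 0.25). Its partner CENPL had 10.6 FPKM in each etoposide library, between the DMSO values of 9.54 and 11.2 FPKM (log2 0.03, SE 0.11, limma adjusted p = 0.908). CENPC, the backbone protein that also binds the MIS12 complex, had 3.16 and 2.91 FPKM in etoposide cells and 2.11 and 3.37 FPKM in DMSO cells. The DMSO libraries bracketed both etoposide libraries for CENPC, and its log2 fold change was 0.18, or -0.053 after the correction, and -0.15 or 0.50 with DMSO replicate 1 or 2 left out. The histone fold proteins CENPT, CENPW and CENPX carry another arm that recruits the NDC80 complex. CENPT had 13.5 and 12.5 FPKM in etoposide cells, against 12.2 and 9.65 FPKM in DMSO cells (log2 0.26, SE 0.13, limma adjusted p = 0.457), and without DMSO replicate 2 the value was 0.097. CENPW had 22.4 and 20.4 FPKM in etoposide cells and 21.5 and 18.6 FPKM in DMSO cells. CENPX had 41.4 and 42.5 FPKM in etoposide cells, within the 46.6 and 37.1 FPKM of DMSO cells (log2 0.01, SE 0.12, limma adjusted p = 0.972). Of these 3, CENPT alone had groups that did not overlap.

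The MIS18 proteins license the loading of new CENP-A after mitosis. MIS18A had 23.9 and 23.7 FPKM in etoposide cells and 24.4 and 22.3 FPKM in DMSO cells, groups that overlapped (log2 0.03, SE 0.082, limma adjusted p = 0.900). OIP5, which encodes MIS18B, had 17.5 and 20.0 FPKM in etoposide cells, against 20.7 and 21.1 FPKM in DMSO cells. OIP5 was the only inner member with a fitted value below 0 (log2 -0.16, SE 0.095, limma adjusted p = 0.507).

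In the outer kinetochore, 13 of 18 members had fitted values above 0, with a median of 0.11 (0.061 after the correction). The groups did not overlap for 8 higher members and 1 lower member, against 28.9% and 19% of all genes tested. The lower member was NDC80, the subunit that grips microtubules. NDC80 had 21.6 and 21.0 FPKM in etoposide cells, against 26.8 and 29.4 FPKM in DMSO cells. Its log2 fold change was -0.40 (SE 0.084, limma adjusted p = 0.298), and -0.48 after the length and GC correction (limma adjusted p = 0.0696). The other 3 subunits of the same complex were not lower in both etoposide libraries. NUF2, which pairs with NDC80 at the microtubule end, had 17.4 and 15.8 FPKM in etoposide cells and 15.1 and 17.2 FPKM in DMSO cells. SPC24 had 21.4 and 20.7 FPKM in etoposide cells and 18.6 and 21.5 FPKM in DMSO cells, and SPC25, its partner in anchoring the complex, 4.74 and 4.79 FPKM against 4.13 and 4.47 FPKM. The FPKM ratio of NDC80 to NUF2 was 1.25 and 1.33 in etoposide cells, against 1.78 and 1.71 in DMSO cells, without overlap. NDC80 by itself already had groups without overlap while those of NUF2 overlapped, so this ratio largely repeats the NDC80 difference. The ratio of NDC80 to DSN1 was 1.36 and 1.30 in etoposide cells, against 2.22 and 2.35 in DMSO cells. NDC80 and DSN1 each already had groups without overlap, in opposite directions, so the separation of this second ratio is no further result either.

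The FPKM of SPC24 and NUF2 came from different transcripts in different libraries, although the sums were close. The 2315-base SPC24 transcript had 20.4 and 19.7 FPKM in the etoposide libraries and 20.6 FPKM in DMSO replicate 2 but was listed at 0 in DMSO replicate 1, where transcripts of 840, 699 and 378 bases held the level instead. The log2 fold change of SPC24 was 0.08 over the sum of transcripts, 0.90 with voom on estimated fragments and 3.81 for the 2315-base transcript alone. In NUF2 the transcript of 1964 bases had 4.33 FPKM in etoposide replicate 1 and 12.9 FPKM in etoposide replicate 2, against 11.0 and 13.1 FPKM in DMSO cells. NDC80 showed no such exchange, since its 2126-base transcript held 92.9% and 93.1% of the level in etoposide cells and 93.0% and 94.2% in DMSO cells.

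**Figure D4:**
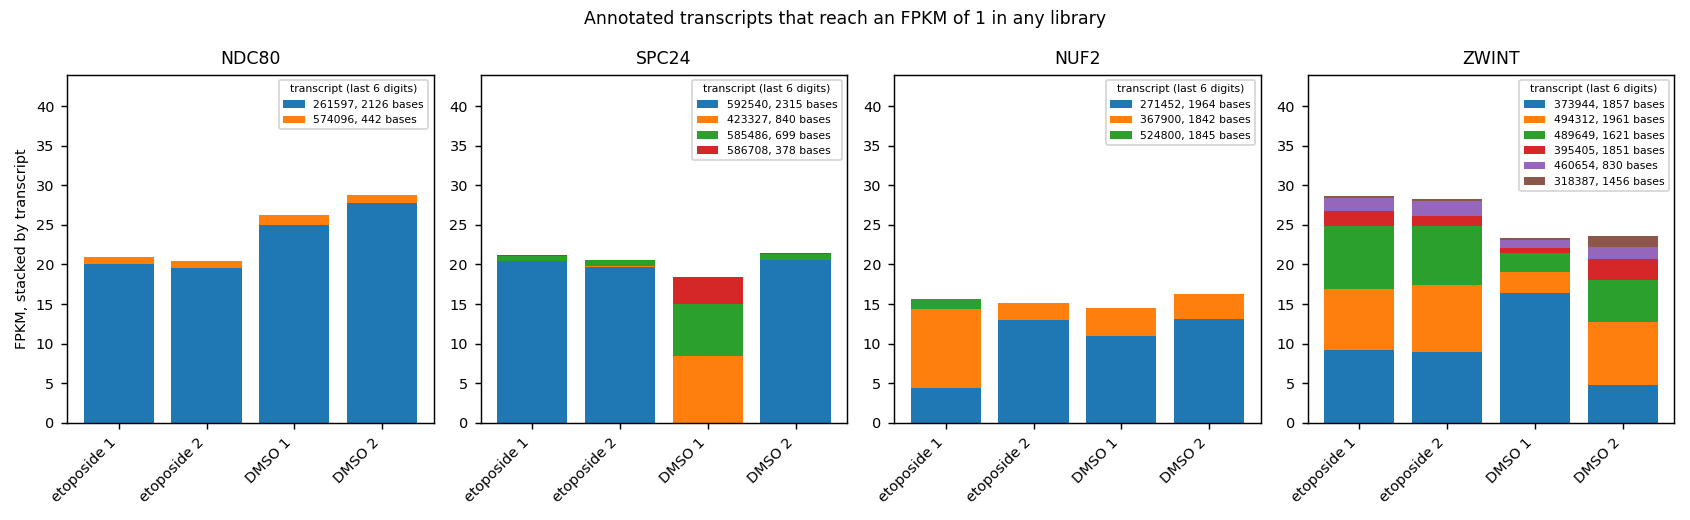
FPKM of NDC80, SPC24, NUF2 and ZWINT in the 4 libraries (etoposide left, DMSO right), stacked by annotated transcript, for transcripts that reach 1 FPKM in any library. The NDC80 bars are lower in etoposide cells in both transcripts drawn, of which the main one holds most of the level. SPC24 in DMSO replicate 1, NUF2 in etoposide replicate 1 and ZWINT in DMSO replicate 1 are divided differently from the other libraries.

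The MIS12 complex links the inner layer to the outer layer. DSN1 had 15.9 and 16.2 FPKM in etoposide cells, against 12.1 and 12.5 FPKM in DMSO cells (log2 0.38, SE 0.082, limma adjusted p = 0.298). In the sum over transcripts the gap between the groups was well over that between replicates, and the value after the correction was 0.32. The 2441-base coding transcript, the highest of DSN1, had groups that overlapped, with 9.27 and 5.20 FPKM in etoposide cells and 6.61 and 4.70 FPKM in DMSO cells. Transcripts annotated as protein coding made up 78.0% and 54.6% of the DSN1 level in etoposide cells and 74.8% and 70.0% in DMSO cells. A 2447-base transcript annotated as retaining an intron had 3.50 and 7.34 FPKM in etoposide cells, against 3.04 and 3.76 FPKM in DMSO cells. The other subunits did not share the higher level of DSN1. PMF1 had 35.5 and 34.1 FPKM in etoposide cells and 39.7 and 34.0 FPKM in DMSO cells (log2 -0.08, SE 0.097, limma adjusted p = 0.758). PMF1 shares exons with the PMF1-BGLAP readthrough gene, so its level is uncertain. MIS12 stayed between 3.87 and 4.19 FPKM in all 4 libraries. NSL1 had 2.73 and 5.31 FPKM in etoposide cells, against 4.08 and 5.18 FPKM in DMSO cells (log2 -0.26, SE 0.31, limma adjusted p = 0.732). The etoposide libraries lay on either side of both DMSO libraries, and the log2 fold change of NSL1 was 0.20 without etoposide replicate 1. Corrected for length and GC content it was -0.50, and leaving out DMSO replicate 1 or 2 gave -0.43 or -0.095.

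KNL1 is the scaffold on which the BUB checkpoint proteins are built, and ZWINT is its partner that brings the corona. KNL1 had 11.5 and 11.9 FPKM in etoposide cells, against 6.91 and 12.0 FPKM in DMSO cells (log2 0.36, SE 0.25, limma adjusted p = 0.552). The difference rested on DMSO replicate 1, and without that library the log2 fold change was -0.04. Leaving out DMSO replicate 2 gave 0.75, and the corrected value was 0.095. ZWINT had 29.0 and 28.7 FPKM in etoposide cells, against 23.4 and 23.7 FPKM in DMSO cells (log2 0.29, SE 0.073, limma adjusted p = 0.319). In the sum over transcripts its replicates lay far closer to each other than its groups did, and its value without DMSO replicate 1 was 0.28. The separation did not hold for its highest transcript, a coding one of 1857 bases. That transcript had 9.13 and 8.90 FPKM in etoposide cells and 16.3 and 4.78 FPKM in DMSO cells, groups that overlapped. Transcripts annotated as protein coding made up 39.6% and 36.5% of the ZWINT level in etoposide cells and 73.7% and 37.8% in DMSO cells, so that the coding share differed between the DMSO libraries.

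The SKA proteins follow the ends of microtubules as they shorten, and the summed RNA level of each of their 3 genes was higher in both etoposide libraries. SKA3 had 7.62 and 7.77 FPKM in etoposide cells, against 6.56 and 6.64 FPKM in DMSO cells (log2 0.22, SE 0.091, limma adjusted p = 0.423). Transcripts annotated as protein coding made up 73.2% and 69.3% of the SKA3 level in etoposide cells, against 82.2% and 86.5% in DMSO cells. A 2803-base SKA3 transcript annotated for nonsense-mediated decay had 1.77 and 1.99 FPKM in etoposide cells, against 0.873 and 0.727 FPKM in DMSO cells. The 2745-base coding transcript, the highest of SKA3, overlapped, with 3.08 and 4.41 FPKM in etoposide cells and 4.93 and 3.89 FPKM in DMSO cells. SKA1 had 2.86 and 2.70 FPKM in etoposide cells, against 2.25 and 2.51 FPKM in DMSO cells (log2 0.22, SE 0.12, limma adjusted p = 0.491). SKA2 had a log2 fold change of 0.20, and after the correction the 3 values were 0.12, 0.13 and 0.062. None of the 3 had an unadjusted p under 0.05.

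The corona proteins ranged more widely than the members of any complex above. KNTC1, the ROD subunit of the complex that brings dynein to the kinetochore, had 14.4 and 13.8 FPKM in etoposide cells, against 8.21 and 10.2 FPKM in DMSO cells. This was the largest fold change of the 39 genes (log2 0.62, SE 0.12, limma adjusted p = 0.274), at 0.41 after the correction, and 0.46 or 0.77 with DMSO replicate 1 or 2 left out. ZW10 of the same complex had 6.93 and 7.50 FPKM in etoposide cells, against 6.14 and 6.84 FPKM in DMSO cells (log2 0.15), and SPDL1, the dynein adaptor Spindly, lay between 17.6 and 19.6 FPKM in all libraries. CENPE, the kinesin that carries chromosomes to the spindle equator, had 6.74 and 6.86 FPKM in etoposide cells, against 6.42 and 11.4 FPKM in DMSO cells (log2 -0.33, SE 0.26, limma adjusted p = 0.597). CENPF had 27.9 and 27.1 FPKM in etoposide cells, against 22.1 and 36.3 FPKM in DMSO cells (log2 -0.04, SE 0.22, limma adjusted p = 0.948). In both genes the DMSO libraries bracketed the etoposide libraries, and the log2 fold change was -0.74 for CENPE and -0.40 for CENPF without DMSO replicate 1, but 0.08 and 0.32 without DMSO replicate 2. After the correction it was -0.61 for CENPE and -0.27 for CENPF.

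Among the 4 centromeric genes, CDCA8, which encodes the passenger subunit borealin, had 16.3 and 16.5 FPKM in etoposide cells, against 19.7 and 19.2 FPKM in DMSO cells. It was lower in both etoposide libraries (log2 -0.25, SE 0.078, limma adjusted p = 0.372), and -0.26 after the correction. INCENP had 20.9 and 20.2 FPKM in etoposide cells and 19.5 and 23.2 FPKM in DMSO cells, groups that overlapped (log2 -0.05, SE 0.11, limma adjusted p = 0.856). Of the shugoshins, SGO1 was higher in both etoposide libraries and SGO2 overlapped. SGO1, the mitotic shugoshin, had 8.65 and 9.14 FPKM in etoposide cells, against 7.10 and 7.88 FPKM in DMSO cells (log2 0.25, SE 0.10, limma adjusted p = 0.419). SGO2 had 10.8 and 10.7 FPKM in etoposide cells and 10.1 and 13.4 FPKM in DMSO cells, so that its groups overlapped (log2 -0.11, SE 0.14, limma adjusted p = 0.753), and it was at 0.087 without DMSO replicate 2. The FPKM ratio of SGO1 to SGO2 was 0.804 and 0.850 in etoposide cells, against 0.701 and 0.587 in DMSO cells. SGO1 by itself already had groups without overlap, so the separation of this ratio is no further result.

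Set side by side, the median log2 fold change was 0.23 for the 17 inner members, 0.11 for the 18 outer members and -0.083 for the 4 centromeric members, as a description with no test. The difference of 0.12 between inner and outer medians did not separate the groups of libraries. The mean log2(FPKM + 0.1) of inner minus outer members was -0.0067 and -0.015 in etoposide cells and -0.00026 and -0.18 in DMSO cells, so that DMSO replicate 1 lay with the etoposide libraries and DMSO replicate 2 apart. Without DMSO replicate 2 the outer median was 0.21, and the difference was 0.028. At an unadjusted p under 0.05, 7 inner members were higher, 3 outer members were higher and 1 lower (NDC80), and 1 centromeric member was lower (CDCA8). Of all genes tested, 7.06% were higher and 4.85% lower at that p.

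Leaving out DMSO replicate 2 changed the count of calls for the members and for the table as a whole. With that library left out, limma called 9 members at an adjusted p of 0.05, namely CENPF, CENPK, CENPQ, CENPU, DSN1, KNL1, KNTC1 and ZWINT as higher and NDC80 as lower, and it also called 8.72% of all genes. The lone DMSO library is then assumed to vary like the etoposide pair. Without DMSO replicate 1, limma called 0 members and 5 genes (0.0225%), and without etoposide replicate 1 or 2 it called 0 members and 0.442% or 0.46% of all genes. No other fit called a member. Without DMSO replicate 2 the log2 fold change of CENPF was 0.32, opposite in sign to the -0.04 with all 4 libraries. The direction of 18 members held under the 12 alternatives that can move a fold change, the 4 fits with 1 library left out among them: NDC80 and OIP5 as lower, and CENPH, CENPI, CENPK, CENPN, CENPO, CENPP, CENPQ, CENPU, ITGB3BP, DSN1, KNTC1, SKA1, SKA2, SPC25, ZW10 and ZWINT as higher.

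At the level of transcripts, the 39 genes had 326 annotated transcripts, from 1 for CENPQ to 35 for CENPT, of which 188 were tested among 71340. None passed an adjusted p of 0.05 in limma (0% of all transcripts), the smallest adjusted p among them being 0.296, and at an unadjusted p under 0.05, 15 were higher and 6 lower, against 2.95% and 2.83% of all transcripts tested. The shorter INCENP transcript of 3698 bases had 4.41 and 4.48 FPKM in etoposide cells, against 1.77 and 1.72 FPKM in DMSO cells (log2 1.30, SE 0.18, limma adjusted p = 0.449), while the 4114-base transcript had 16.3 and 15.6 FPKM in etoposide cells and 17.6 and 21.3 FPKM in DMSO cells. The 8541-base CENPE transcript had 0.186 and 0.163 FPKM in etoposide cells, against 1.38 and 1.87 FPKM in DMSO cells (log2 -2.64, SE 0.30, limma adjusted p = 0.344), beside 6.47 and 6.62 FPKM in etoposide cells and 5.02 and 9.47 FPKM in DMSO cells for the main transcript. Of the CDCA8 transcripts, that of 2303 bases had 7.14 and 5.70 FPKM in etoposide cells, against 11.5 and 10.7 FPKM in DMSO cells, and that of 2371 bases 9.14 and 10.8 FPKM in etoposide cells, against 8.19 and 8.50 FPKM in DMSO cells. Transcripts annotated as protein coding held at least 90% of the level in every library for 23 members, and under 50% in every library for CENPT and ITGB3BP. These transcripts were chosen after their values were seen, and division of reads among overlapping transcripts is an estimate.

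Another 25 genes of the centromere, kinetochore and spindle checkpoint were listed beside the members. Of these, 9 had fitted values above 0 and 16 below. Their median was -0.057, with -0.11 after the correction and 0.0037 without DMSO replicate 2. At an unadjusted p under 0.05, 4 were higher and 5 lower, where 7.06% of all genes were higher and 4.85% lower. None passed an adjusted p of 0.05 in limma. PLK1, the mitotic kinase that CENPU docks, had 17.6 and 20.4 FPKM in etoposide cells, against 30.6 and 27.5 FPKM in DMSO cells (log2 -0.61, SE 0.11, limma adjusted p = 0.267). CENPA, the centromeric histone itself, had 12.4 and 12.3 FPKM in etoposide cells, against 20.2 and 16.5 FPKM in DMSO cells (log2 -0.56, SE 0.12, limma adjusted p = 0.289). ZWILCH, the third partner of KNTC1 and ZW10, had 36.4 and 37.2 FPKM in etoposide cells, against 26.0 and 30.2 FPKM in DMSO cells (log2 0.39, SE 0.095, limma adjusted p = 0.311). TRIP13, which remodels the checkpoint protein MAD2, had 78.7 and 78.3 FPKM in etoposide cells, against 66.1 and 68.2 FPKM in DMSO cells (log2 0.23, SE 0.068, limma adjusted p = 0.358). These 4 genes were taken by their small p-values, and in each the groups did not overlap. Over the 25 genes, both etoposide libraries lay above both DMSO libraries for 7 and below them for 10. The shares of all genes tested were 28.9% and 19%.

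Lists of phase markers are set beside the members because kinetochore genes are transcribed with the cell cycle. Of 42 S phase markers, 41 had fitted values above 0 (median 0.32, and 0.24 after the correction). At an unadjusted p under 0.05, 30 of them were higher, where 7.06% of all genes were. The summed levels of the list were 1002 and 1005 FPKM in etoposide cells, against 782 to 849 FPKM in DMSO cells. Of 49 G2 and M markers, 37 had fitted values below 0 (median -0.12), and 43 after the correction (median -0.23). The median was -0.20 without DMSO replicate 1 and -0.090 without DMSO replicate 2. At an unadjusted p under 0.05, 19 were lower and 3 higher, where 4.85% of all genes were lower and 7.06% higher. The sums were 2424 to 2434 FPKM in etoposide cells, against 2591 to 2645 FPKM in DMSO cells. Neither list had a gene past an adjusted p of 0.05 in limma. The lists as used here hold no member, which does not mean that no member is a phase marker. Of the 25 other kinetochore genes, 8 are among the G2 and M markers. The part of cell cycle phase in the values of the members was not tested.

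**Figure D5:**
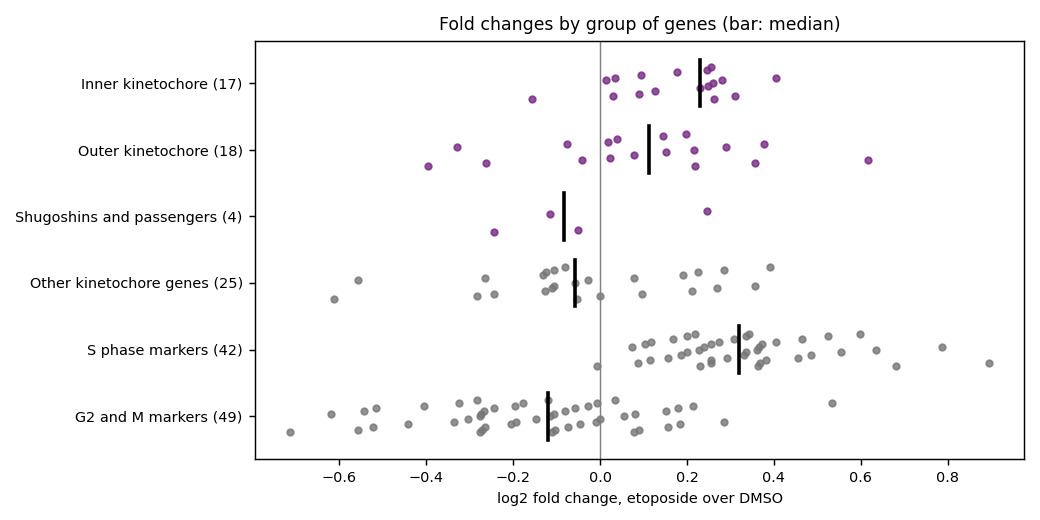
Log2 fold change, etoposide over DMSO, of each gene (points) with the median of its group (bar), for the inner, outer and centromeric members (purple) and for the other kinetochore genes, S phase markers and G2 and M markers (grey). With all 4 libraries the inner median of 0.23 lies below that of the S phase markers at 0.32, and the centromeric median of -0.083 lies near those of the other kinetochore genes (-0.057) and of the G2 and M markers (-0.12).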

How the data were processed

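RNA was sequenced from OVCAR3 cells as read pairs of 2 × 100 bases from a stranded kit, in 4 libraries grouped by their labels into etoposide and DMSO. Per the labels and the file headers, HISAT2 (GRCh38) was the authors' aligner, SAMtools sorted its output, and StringTie 2.1.7 estimated Ensembl release 104 transcripts without a strand option, so reads of a gene and of an overlapping antisense gene cannot be told apart. The deposited tables give coverage, FPKM and TPM for 236853 transcripts and no counts, and the authors' DESeq2 test of counts was not used here. The study's methods speak of transfected cells for the RNA, which the labels of these libraries do not mention.

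A gene's level was the sum of FPKM over its transcripts. The design planned a count test only if counts were present, so limma 3.58.1 in R 4.3.3 was run on log2(FPKM + 0.1) with a coefficient for the group and eBayes (trend, robust), keeping the 22185 genes that averaged 0.1 FPKM or more, and p-values were adjusted over all of these by Benjamini-Hochberg. A fold change on this scale understates the change of low genes. The fits were tested on simulated data. The mapped read pairs given per library are an estimate from the deposited coverage over the 200 bases of a pair. Python 3.11.15, pandas 2.3.3 and matplotlib 3.10.9 made the tables and figures, and GENCODE release 44 gave transcript types.

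The members and lists were chosen with earlier results of these data known, and the lists were written from general knowledge. Values with error and adjusted p are given for the 5 largest and 5 smallest log2 fold changes of the inner and of the outer members, the 4 centromeric members, the highest and lowest member of each by mean FPKM, and the 2 smallest p-values in each direction of the other kinetochore genes. The deviations of equally numbered replicates had a correlation of 0.013 across genes, and with 2 numbers they were not taken as pairs. The alternatives were other pseudocounts (1 and 0.01) and filters, TPM, a median scaling, a loess correction for length and GC content (span 0.3), the highest transcript alone, voom on estimated fragments, no trend, the replicate number as a block, and each library left out. The correction together with leaving out DMSO replicate 1 was added after the data were seen.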

Additional observations from a re-analysis of the deposited data

How the results depend on the processing

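With each library left out in turn, limma called 5 (without DMSO replicate 1) to 1934 genes (without DMSO replicate 2) and 0 to 9 members. Over the same fits the inner median log2 fold change was 0.18 to 0.24, the outer 0.022 to 0.21, the centromeric -0.20 to 0.080 and the inner minus outer difference 0.028 to 0.16. Over all genes, 6 passed after the length and GC correction, 2 with the highest transcript and 1 with voom, and 0 members did. The inner median was 0.30 in TPM, a unit whose median over the whole table was 0.10, then 0.20 after median scaling, 0.14 after the correction, 0.19 with the highest transcript, 0.18 with voom and 0.15 with the correction and without DMSO replicate 1. The outer median was -0.0079 with the highest transcript and -0.00045 with the correction and without DMSO replicate 1, where the centromeric median was -0.23. The difference of medians was 0.20 with the highest transcript and 0.031 with voom. Directions turned for 21 members. In TPM INCENP was at 0.015 and CENPF at 0.025. After median scaling MIS18A was at -0.0027, CENPX at -0.019, SPDL1 at -0.0086 and MIS12 at -0.015. After the correction CENPC was at -0.053, CENPL at -0.040, MIS18A at -0.0087, NUF2 at -0.040, SPDL1 at -0.080 and MIS12 at -0.054. With the highest transcript SGO1 was at -0.14, CDCA8 at 0.25, CENPT at -0.12, KNL1 at -0.055, SKA3 at -0.24, NUF2 at -0.67, SPDL1 at -0.045, MIS12 at -0.17 and NSL1 at 0.15, where only 1 transcript is read. With voom SPDL1 was at -0.0069 and NSL1 at 0.11. With the correction and without DMSO replicate 1, an alternative chosen after seeing the data, CENPC was at -0.22, CENPL at -0.12, KNL1 at -0.11, SPC24 at -0.049, NUF2 at -0.10, SPDL1 at -0.10, MIS12 at -0.030 and PMF1 at 0.029. With 1 library left out, the fold changes that turned ranged from -0.18 to 0.074 for INCENP, -0.32 to 0.087 for SGO2, -0.15 to 0.50 for CENPC, -0.010 to 0.20 for CENPW, -0.036 to 0.22 for CENPM, -0.079 to 0.15 for CENPL, -0.033 to 0.092 for MIS18A, -0.15 to 0.18 for CENPX, -0.038 to 0.75 for KNL1, -0.027 to 0.18 for SPC24, -0.057 to 0.13 for NUF2, -0.053 to 0.10 for SPDL1, -0.039 to 0.073 for MIS12, -0.40 to 0.32 for CENPF, -0.19 to 0.036 for PMF1, -0.73 to 0.20 for NSL1 and -0.74 to 0.082 for CENPE. The cause of these shifts was not tested. With the replicate number as a block, 0 genes and 0 members were called, and in this balanced design the block, like both filters and the fit without trend, cannot move a fold change. The files give no counts, so the fragments behind the genes at a few FPKM, such as CENPP and SKA1, can only be estimated.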
